A study of Mus musculus with 9 samples.

Results

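The Ifi200 family is the mouse set of PYHIN genes, and 7 of its genes, Ifi202b, Ifi203, Ifi204, Ifi205, Mnda, Mndal, and Pyhin1, were taken by name from the 24341 rows of a liver expression table. The livers came from 9 wild-type C57BL/6 mice, of which 3 had received an agonist CD40 antibody (anti-CD40, mice 2, 5, and 9) and 6 were controls, PBS by the sample records (mice 3, 4, 7, 8, 11, and 12). Tissue was taken 48 hours after treatment, and the sample records give no age, while the study's methods describe its mice in general as sex-matched young adults. mRNA was sequenced from its 3′ end, and the level of each gene was given as FPKM, a count of fragments scaled to the length of the transcript and to the depth of the library.

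PYHIN proteins carry a pyrin domain, a DNA-binding HIN-200 domain, or both. Many are induced by interferons, and several bind DNA that is out of place in the cell or act in the nucleus on transcription. Aim2, the best known of them, assembles an inflammasome on cytosolic DNA, and Ifi204 (p204) is the mouse relative of human IFI16. Ifi202b encodes a protein with HIN domains but no pyrin domain that restrains Aim2, and C57BL/6 mice are known to express little or none of it. CD40 is a receptor on antigen-presenting cells, and its activation leads to release of cytokines, interferon-γ among them. All 12 PYHIN rows of the table lie together on chromosome 1 (mm10), and no other gene of the table starts and ends between them. The 7 members span chr1:173630859-174031755, a stretch of 401 kb, and all 12 rows span 611 kb. In newer annotation Mnda is named Ifi211 and Pyhin1 is named Ifi209, and they keep the table's names here.

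The promoters of these genes are shown because most of them share a sequence that interferon-activated factors are known to use. RefSeq promoters (GRCm38.p6, the build also called mm10, 250 bases before to 50 after each start) were at hand for 6 of the 7 members and for all 5 other PYHIN rows, and Ifi204 was not among them. The core of an interferon-stimulated response element, GAAANNGAAA on either strand, was present in 4 of the 6 members with a promoter (Ifi203, Ifi205, Mnda, and Mndal) and in 4 of the 5 other genes. Of all 27025 genes in the promoter table, 3.99% held it. The stretches of 50 bases around the core are given 5′ to 3′ on the strand of the gene, with the core in capitals.
Mnda, chr1:173913054-173913103, minus strand: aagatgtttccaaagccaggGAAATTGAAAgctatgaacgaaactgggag
Ifi205, chr1:174031860-174031909, minus strand: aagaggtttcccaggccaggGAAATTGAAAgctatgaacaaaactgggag
Ifi203, chr1:173942498-173942547, minus strand: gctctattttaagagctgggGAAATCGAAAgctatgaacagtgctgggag
Mndal, chr1:173880194-173880243, minus strand: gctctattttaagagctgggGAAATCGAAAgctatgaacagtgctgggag
BC094916, chr1:173536007-173536056, minus strand: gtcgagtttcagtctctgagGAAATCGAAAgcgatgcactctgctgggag
Pyhin1, chr1:173630760-173630809, plus strand, capitals at the place of the core: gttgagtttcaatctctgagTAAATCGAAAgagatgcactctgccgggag

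Ifi203 and Mndal were identical over all 50 bases, and Ifi205 and Mnda shared 46 of 50. The core began 37 bases before the start in Mnda, 35 in Ifi203, 36 in Mndal, and 134 in Ifi205, whose promoter held a second match on the opposite strand just after the start. For Ifi203 and Mndal the table has 2 promoters each. The other promoter of Ifi203 held no match, and that of Mndal held a match on the opposite strand. Pyhin1 had no match. Its stretch most like those of the family was 90% identical to that of BC094916, a PYHIN gene now named Ifi214, and within the core it differed by G1T, counted from the first capital (the base of BC094916, the position, then the base of Pyhin1). Ifi202b had no stretch closer than 25 mismatches in 50. It was the only member with a GAS core (TTCNNNGAA), 1 palindrome read on both strands, which 9.55% of all genes hold. The core of PU.1 sites (GAGGAA), in 31.3% of all genes, was in no member and in 4 of the 5 other genes. In BC094916, Pydc3, and Pydc4 it overlaps the first bases of the interferon core. These matches are letters in a window and do not show that a factor binds there.

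After anti-CD40, 6 of the 7 members were higher, from 2.36-fold for Ifi204 to 8.66-fold for Ifi205 by the group means, and Ifi202b was not detected above the floor of the table in any mouse. Each of the 6 passed the test (adjusted p under 0.05 from limma, a linear model across all 13807 genes with a mean of at least 0.1 FPKM, on log2(FPKM + 0.1)), and for each of them the lowest anti-CD40 mouse was above the highest control mouse. Of all genes tested, 23.5% were called higher, 21.7% were called lower, and 22.7% had every anti-CD40 mouse above every control mouse. The median log2 fold change of the 6 members was 2.06, beside 0.0056 for all genes tested. A pair of libraries stood apart. Anti-CD40 mouse 5 had a summed FPKM of 335 over 6 markers of pancreatic acinar cells, against 0.363 to 2.07 in the other mice, and without it all 6 members were still called higher, from 1.31 for Ifi204 to 3.07 for Ifi205 on the log2 scale. Control mouse 4 had a summed FPKM of 26065 over 4 erythroid markers, against 4187 to 7428 in the other controls and 2376 to 7904 after anti-CD40, and without it all 6 were also called, from 1.45 for Mndal to 3.18 for Ifi205. In each of the 6, the control mice alone had values above the filter, so none was tested only because it was high after anti-CD40.

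Ifi205, which encodes the pyrin and HIN protein p205, had the largest response of the family. Anti-CD40 mice 2, 5, and 9 had 9.78, 8.76, and 8.16 FPKM. In the control mice the lowest value was 0.667, the median 0.879, and the highest 1.55. The lowest treated mouse was thus far above the highest control. The means were 8.90 ± 0.818 (SD, n = 3) and 1.03 ± 0.377 (SD, n = 6), and the model gave a log2 fold change of 3.06 (SE 0.26, adjusted p = 8.24e-06, limma), which ranked 261 of 13807 genes.

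Mnda bears the name of human MNDA, the myeloid cell nuclear differentiation antigen. It reached 12.6, 10.4, and 9.07 FPKM in anti-CD40 mice 2, 5, and 9, whereas the controls ran from 0.996 through a median of 1.60 to 2.66. The groups did not overlap. The means were 10.7 ± 1.76 (SD, n = 3) and 1.74 ± 0.657 (SD, n = 6), and the log2 fold change was 2.61 (SE 0.28, adjusted p = 4.41e-05, limma).

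Pyhin1, which shares its name with human PYHIN1 (IFIX), was at 5.20, 3.81, and 4.36 FPKM in anti-CD40 mice 2, 5, and 9. The control values had a lowest of 0.482, a median of 0.632, and a highest of 0.809. Its log2 fold change of 2.64 had the smallest SE of the 6 (0.17, adjusted p = 2.14e-06, limma), and the means were 4.46 ± 0.700 (SD, n = 3) and 0.634 ± 0.114 (SD, n = 6). Both groups were again apart from each other.

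Ifi203, a pyrin and HIN gene with several transcripts, was already well above the floor in control livers. Its FPKM there had a lowest of 3.97, a median of 5.48, and a highest of 6.84, and in anti-CD40 mice 2, 5, and 9 it was 17.7, 16.1, and 12.9. The treated mice were all higher, by a log2 fold change of 1.51 (SE 0.18, adjusted p = 8.06e-05, limma) between means of 15.6 ± 2.43 (SD, n = 3) and 5.46 ± 1.04 (SD, n = 6).

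Mndal, a further pyrin and HIN gene next to Mnda, gave 29.1, 28.2, and 23.6 FPKM in anti-CD40 mice 2, 5, and 9. Its control values ran from 7.13 through a median of 10.4 to 13.3, again below every treated mouse. The means of 27.0 ± 2.95 (SD, n = 3) and 10.5 ± 2.48 (SD, n = 6) gave a log2 fold change of 1.38 (SE 0.20, adjusted p = 2.92e-04, limma).

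Ifi204 had the smallest response and, relative to its mean, the widest spread between control mice. Values in anti-CD40 mice 2, 5, and 9 were 16.1, 12.8, and 10.8 FPKM, and control values had a lowest of 3.56, a median of 4.97, and a highest of 9.36, in mouse 4. The groups still did not overlap, but the lowest treated mouse was only a little above control mouse 4. Means were 13.2 ± 2.64 (SD, n = 3) and 5.62 ± 2.27 (SD, n = 6), and the log2 fold change was 1.29 (SE 0.30, adjusted p = 0.00500, limma). Without anti-CD40 mouse 2 it was 1.14, with an adjusted p of 0.0309.

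Ifi202b was listed at the floor of 0.01 FPKM in all 9 mice, and it was not tested. A value at the floor cannot separate an absent gene from one under the limit of detection.

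**Figure D1:**
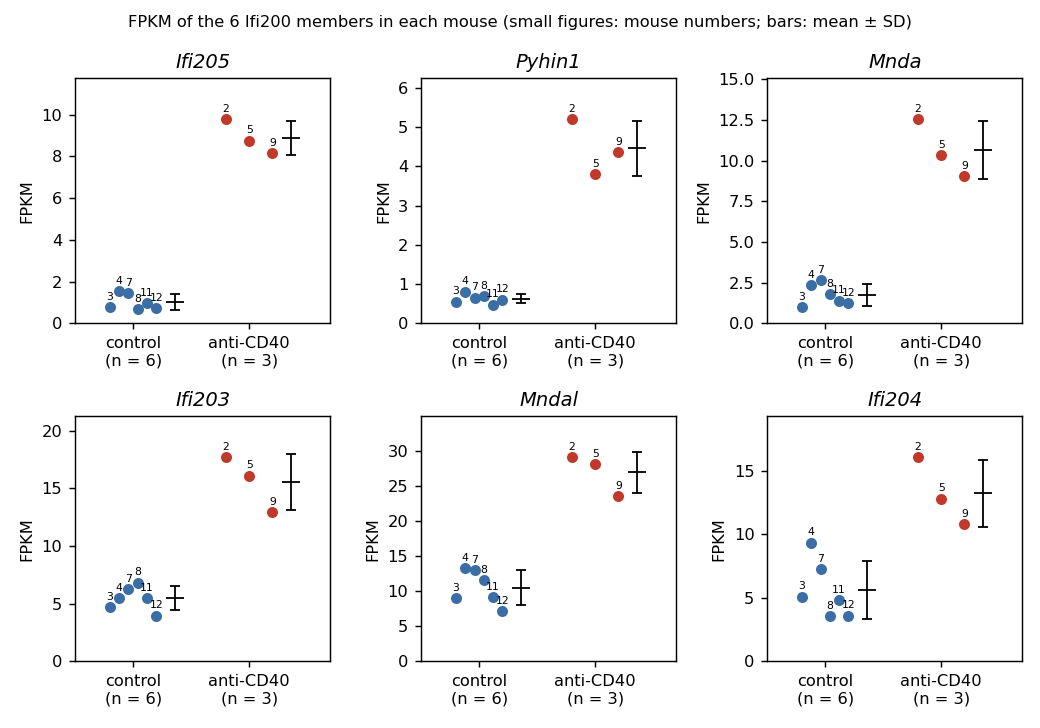
FPKM (vertical axes, each from 0) of the 6 tested Ifi200 members in the 6 control and 3 anti-CD40 mice, with 1 point for each mouse, its number beside it, and the mean ± SD of the group to the right. In every panel all anti-CD40 mice lie above all control mice, with the narrowest gap in Ifi204, between 9.36 in control mouse 4 and 10.8 in anti-CD40 mouse 9.

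Reads of near-identical genes can be split between them, and the 3′ ends of several members are close copies. In the last 400 bases of the longest GENCODE transcript that ends within 100 bases of each row's own end, 87.5% of the 50-base windows of Ifi205 were also in Mnda, and 85.2% of those of Mnda were in Ifi205. For Pyhin1, 63.8% of the windows were also in a transcript of BC094916 (Ifi214-203), but the end at the row of BC094916 itself shared none. Of the windows of Mndal, 17.1% were in Ifi205, and of those of Pydc3, 16.2% were in Pydc4. Ifi203, Ifi204, and Ifi202b shared none. A window counted as shared only if all 50 bases were identical, while the study's methods allowed mismatches in alignment. Whether reads were also placed across genes without shared windows was not tested. How reads with several matches were counted is not given in the sources used here, so the values of Ifi205 and Mnda are uncertain as separate genes, and those of Pyhin1 and BC094916 in part. The steps between low values of the table gave whole reads (within 0.05 of a read) for Ifi205 and Pyhin1. They gave none for Ifi203, Ifi204, Mnda, or Mndal, for which the cause was not tested. The search tried at most 80 reads for the lowest mouse above the floor, so a gene with more reads there could be missed. By these steps Ifi205 rested in anti-CD40 mice 2, 5, and 9 on at least 305, 257, and 223 reads, and in the controls on 16 to 45, and Pyhin1 on at least 380, 262, and 279 and 30 to 55. Larger multiples of these reads would fit as well, and the table gives no read totals.

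The members did not all respond to the same extent. The ratio of 2 members within each mouse was compared between the groups for all 15 pairs, by exact permutation (2-sided) of the 9 mice, which can be dealt into 3 and 6 in 84 ways. In 9 pairs the ratio differed (exact permutation p = 0.0238 for each, the smallest the design allows, adjusted p = 0.0397 over the 15 pairs). These were the 9 pairs of one of Ifi205, Mnda, and Pyhin1 with one of Ifi203, Ifi204, and Mndal, a grouping that was noticed after the values were seen. The responses differed most between Ifi205 and Ifi204, by 1.77 on the log2 scale, and least between Mnda and Ifi203, by 1.11. None of the 9 ratios overlapped between the groups. The mean log2 ratio of Ifi205 over Mndal, for example, moved from -3.27 ± 0.345 (SD, n = 6) in control mice to -1.59 ± 0.0790 (SD, n = 3) after anti-CD40.

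Within either trio no pair passed the threshold. Ifi205 exceeded Mnda by 0.44 (adjusted p = 0.0714, exact permutation) and Pyhin1 by 0.42 (adjusted p = 0.195), and these 2 pairs are the nearest to the threshold. Differences of Mnda from Pyhin1 (0.025 in size), of Ifi203 from Ifi204 (0.21), of Ifi203 from Mndal (0.13), and of Mndal from Ifi204 (0.084) had adjusted p values from 0.417 to 0.976. A p that misses the threshold does not show that 2 members respond alike. The call of the 9 pairs depends on the pseudocount, since with 1 in place of 0.1 no pair passed (smallest adjusted p = 0.0510), although the ratios of 7 pairs still did not overlap. With that pseudocount the pairs of Pyhin1 with Ifi203, Ifi204, and Mndal overlapped, and the pair of Ifi205 and Pyhin1 did not.

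**Figure D2:**
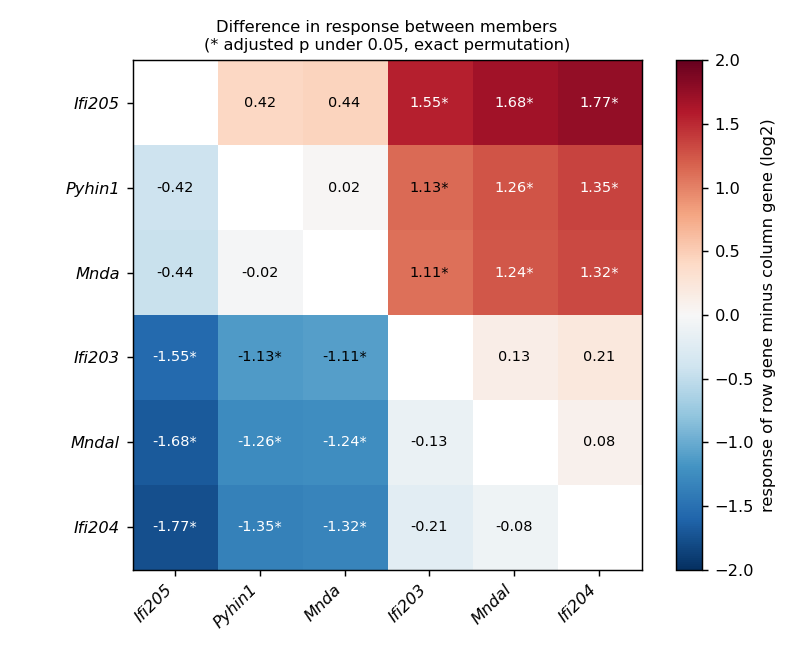
Difference in response (log2 fold change of the row gene less that of the column gene, from within-mouse ratios) for the 15 pairs of tested members, each shown in both directions, with colour from -2 to 2 and a star where the adjusted p was under 0.05 in the exact permutation test. The 9 starred pairs join Ifi205, Pyhin1, or Mnda with Ifi203, Mndal, or Ifi204, from 1.11 to 1.77.

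The order of the genes on the chromosome did not follow the size of the response. From the low to the high coordinate the tested members run Pyhin1, Ifi204, Mndal, Mnda, Ifi203, and Ifi205. Their log2 fold changes in that order were 2.64, 1.29, 1.38, 2.61, 1.51, and 3.06. Ifi203 and Mndal, whose promoter stretches are identical, had the responses 1.51 and 1.38. Ifi205 and Mnda, whose stretches differ at 4 of 50 bases, had 3.06 and 2.61, with their shared 3′ ends as a limit. Pydc3 and Pydc4, also identical over 50 bases, had 1.07 and 1.89. AI607873, a PYHIN gene that shared 44 of 50 bases with Ifi205, had 1.47. A relation between promoter likeness and response was not tested.

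All 5 other PYHIN genes with a row were also called higher, of 15 names looked for. Aim2 rose from 2.12 ± 0.321 (SD, n = 6) to 8.52 ± 1.44 (SD, n = 3) FPKM, which limma put at a log2 fold change of 1.96 (SE 0.16, adjusted p = 7.72e-06), without overlap between groups. AI607873, now named Ifi207, changed by 1.47 on the log2 scale (adjusted p = 1.53e-05) and Pydc4, now named Ifi213, by 1.89 (adjusted p = 3.58e-04), both without overlap. Pydc4 had a control mean of 0.0776 FPKM and passed the filter only through its treated mice. It rested on at least 25, 37, and 21 reads for anti-CD40 mice 2, 5, and 9 and 1 to 9 for the controls. Pydc3, now named Ifi208, was called at 1.07 (adjusted p = 0.0214) with overlapping groups. It was at 2.09, 0.948, and 2.09 FPKM in anti-CD40 mice 2, 5, and 9 against 0.470 to 1.16 in controls. It lost its call without anti-CD40 mouse 2 or 9, with no filter (limma adjusted p = 0.0694), and under quantile normalization (0.74, limma adjusted p = 0.106). BC094916 was called at 2.41 (adjusted p = 1.33e-04), but it passed the filter only through its treated mice and rested on few reads, at least 25, 8, and 15 for anti-CD40 mice 2, 5, and 9 and 0 to 2 for the controls.

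Outside the family, the table has 27 rows within 500 kb of the members, 20 of them olfactory receptor genes, and 21 of the 27 were at the floor in all mice. Only 2 could be tested. Cadm3, a cell adhesion gene on the low side of the cluster, was lower after anti-CD40 (0.130 ± 0.0467 against 1.15 ± 0.210 FPKM, log2 fold change -2.44, SE 0.20, adjusted p = 7.19e-06, limma). Ackr1, a chemokine-binding receptor beside it, was not called (log2 fold change 0.36, adjusted p = 0.299).

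**Figure D3:**
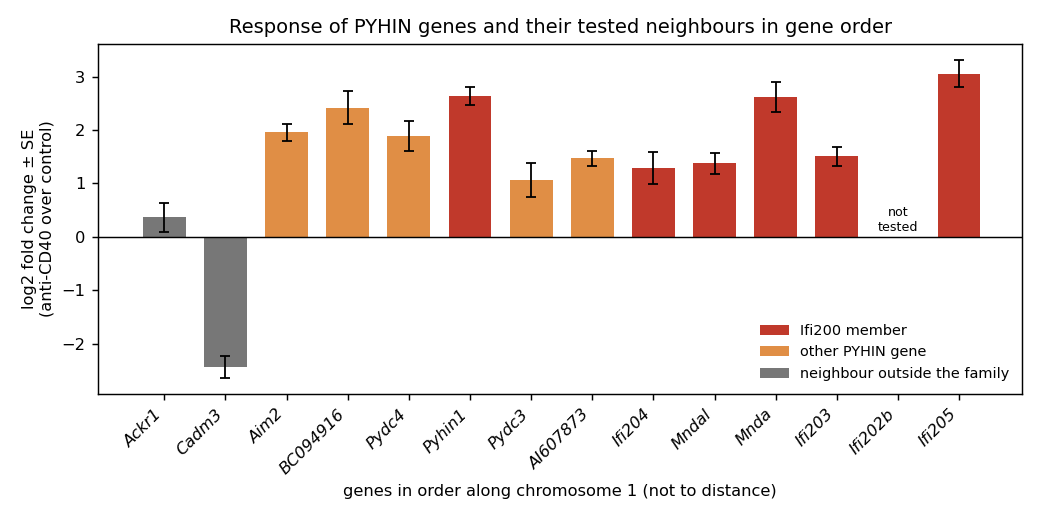
log2 fold change ± SE (anti-CD40 over control, limma) of the 12 PYHIN rows and the 2 tested neighbours in their order along chromosome 1, evenly spaced. Bars of all 11 tested PYHIN genes are above 0, Cadm3 is at -2.44, and Ifi202b has no bar because it was at the floor in every mouse.

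Bulk tissue gives no cell of origin, and more cells of a type and more RNA per cell cannot be told apart. Markers of most leukocyte types were higher in the same livers. All 5 general leukocyte markers were called higher, with a summed FPKM of 251 to 297 after anti-CD40 and 58.3 to 104 in controls, as were 5 of 5 tested neutrophil markers (4198 to 5179 against 18.0 to 152), 4 of 4 tested B cell markers, 5 of 5 NK cell markers, and 5 of 6 T cell markers. Dendritic cell markers were called higher in 3 of 4 tested (1 without overlap), and plasma cell markers in 1 of 4. The dendritic marker without overlap, Flt3, had a control mean of 0.0481 FPKM and passed the filter only through the anti-CD40 mice. The same holds for the neutrophil marker Cxcr2 (control mean 0.0556 FPKM), the B cell marker Cd79a (0.0878), and the T cell marker Cd8a (0.0946). The counts of markers called higher include them. Cd209a, the dendritic marker under the filter, was at the floor in all 3 anti-CD40 mice and at 0.0414 to 0.264 FPKM in controls. Of 8 monocyte and macrophage markers, 5 were higher and 1, Adgre1, was lower (summed 276 to 391 against 45.4 to 80.2). All 5 Kupffer cell markers were lower (37.2 to 48.1 against 268 to 425), as were all 6 hepatocyte markers, although their sum was 4669 or more in every mouse of what the records label as liver. The part of these shifts in the response of the members was not tested.

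The members were therefore also set against 3 leukocyte genes within each mouse, 18 ratios in all, with the same exact permutation test (15 passed at an adjusted p of 0.0286 over the 18, each at the smallest p, 0.0238). Differences between members in these ratios are those of the pairs above and add nothing to them. Over Ptprc, the common leukocyte antigen CD45, the log2 ratio of Ifi203 fell by 1.09, that of Mndal by 1.22, and that of Ifi204 by 1.31 after anti-CD40. Ifi205 rose relative to Ptprc, by 0.46, whereas Mnda (0.014) and Pyhin1 (0.039) had an adjusted p of 0.905. Control ratios to Ptprc had SDs of 0.27 and 0.38 for the last 2.

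Over Itgam, the CD11b chain of myeloid cells, 5 members were lower after anti-CD40, by 0.71 for Pyhin1, 0.74 for Mnda, 1.85 for Ifi203, 1.98 for Mndal, and 2.06 for Ifi204. Ifi205 was at -0.29 and did not pass (adjusted p = 0.134, exact permutation). Over Csf1r, the receptor that macrophages and Kupffer cells need for survival, all 6 members were higher, from 1.91 for Ifi204 to 3.68 for Ifi205. Itgam itself changed by a log2 fold change of 3.35 (adjusted p = 2.06e-06, limma), Ptprc of 2.60 (adjusted p = 5.47e-05), and Csf1r of -0.62 (adjusted p = 0.0837), so the sign of a ratio depends on the leukocyte gene chosen.

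**Figure D4:**
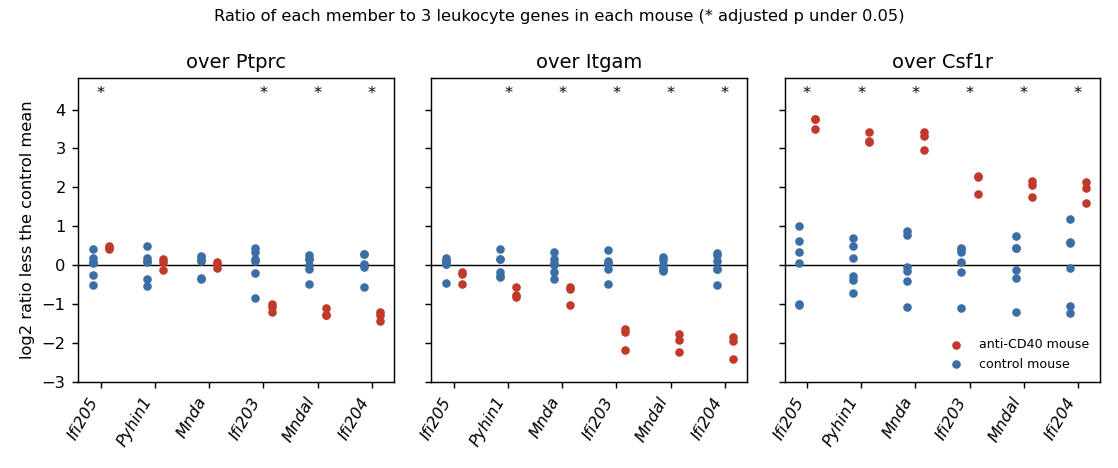
Log2 ratio of each tested member to Ptprc, Itgam, and Csf1r in each mouse, less the mean of the control mice (vertical axis), with red points for anti-CD40 and blue points for control mice and a star where the adjusted p was under 0.05. Ifi203, Mndal, and Ifi204 lie below 0 over Ptprc in the anti-CD40 mice, and all 6 members lie above 0 over Csf1r.

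Mice of one group differed in the same direction across members. Anti-CD40 mouse 2 was the highest treated mouse in 6 of 6 members, and mouse 9 the lowest in 5. Among controls, mouse 4 was the highest in 4 of 6, and mice 4 and 7 were both above the control mean in 6 of 6, by 0.44 and 0.37 on the log2 scale over the members. Control mice 3 and 12 were below it in 6 of 6, by 0.26 and 0.38. The same mice 4 and 7 had the highest and second highest summed neutrophil, B cell, T cell, and NK cell markers of the controls. Mouse 4 also had the highest summed erythroid markers. Not all lists had this order. Summed general leukocyte markers were highest in control mouse 12 (104 FPKM, against 102 in mouse 4 and 98.4 in mouse 7), and Kupffer cell markers in mouse 8. The relative depths of mice 4 and 7 were 1.05 and 1.06 of the geometric mean of all mice, by the steps between low values. These were also the highest of the controls, and that of mouse 2, 1.13, was the highest of all. The part of any of these in the levels of the members was not tested.

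**Figure D5:**
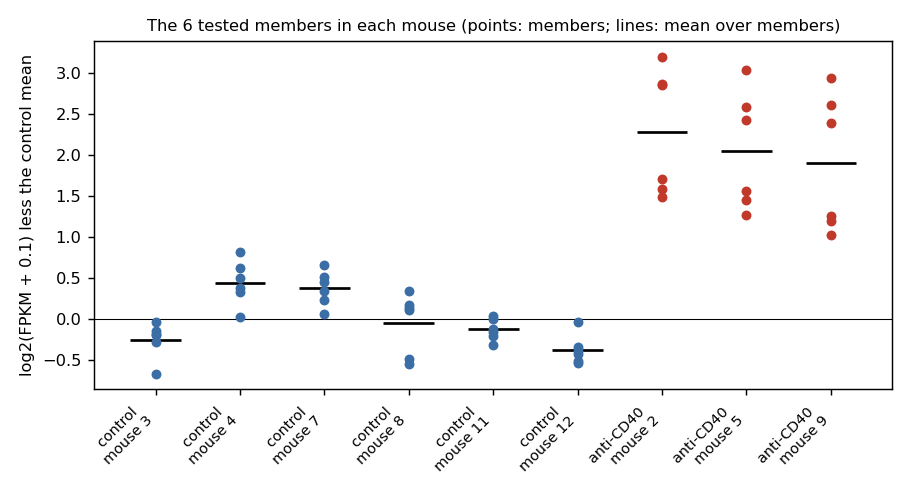
log2(FPKM + 0.1) of the 6 tested members less the control mean of the same gene (vertical axis) in each mouse, with 1 point for each member and a line at the mean over members. Control mice 4 and 7 lie above the other controls at 0.44 and 0.37, and the anti-CD40 mice lie at 2.28, 2.05, and 1.90.

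In the pathway that PYHIN sensors act in, 12 of 16 DNA sensing and inflammasome genes were called higher, 2 were lower, and 2 were not called, with a median log2 fold change of 1.52. Among sensors and adaptors, Zbp1, a Z-nucleic acid sensor, had a log2 fold change of 2.73 (SE 0.25), Tmem173, which encodes STING, of 2.53 (SE 0.17), and Mb21d1, which encodes cGAS, of 2.29 (SE 0.18). Pycard, the ASC adaptor that links Aim2 to caspase-1, went from 2.13 ± 0.591 (SD, n = 6) to 17.5 ± 3.04 (SD, n = 3) FPKM, a log2 fold change of 3.01 close to that of Ifi205. Casp4 (2.94), Casp1 (1.33), Nlrp3 (1.57), and Gsdmd (0.94), the proteases, receptor, and pore protein of inflammasomes, were each called higher, as were the nucleases or nucleotide hydrolase Trex1 (1.42) and Samhd1 (1.47) and the transcription factor Irf7 (2.12). Of the 2 inflammasome cytokines, Il1b was higher (1.89, adjusted p = 0.0387, overlapping groups) and Il18 was lower (59.7 ± 12.3 against 124 ± 38.9 FPKM, adjusted p = 0.0109). Neither call was stable. Il1b lost it without anti-CD40 mouse 2, 5, or 9 or control mouse 7, 8, 11, or 12 (limma adjusted p = 0.0642 to 0.113), and Il18 lost it without anti-CD40 mouse 5 (adjusted p = 0.0532). Irf3, the factor activated downstream of STING, was lower (-1.02, adjusted p = 7.30e-04), while its kinase Tbk1 (0.41, adjusted p = 0.225) and the helicase Ddx41 (0.091, adjusted p = 0.708) were not called.

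For interferon signalling, 11 of 14 genes could be tested, of which 8 were higher, 0 were lower by limma (0 also at an unadjusted p under 0.05), and 3 were not called, with a median log2 fold change of 0.65. Irf8 (2.23), Ifngr2 (1.43), Ifnar2 (1.18), Jak2 (0.85), Ifngr1 (0.84), Stat2 (0.65), Jak1 (0.45), and Irf9 (0.45) were the 8, and Ifnar1 (0.36), Irf1 (0.33), and Tyk2 (0.27) were not called. Of the 8, Stat2 lost its call without any 1 of the anti-CD40 mice 2, 5, and 9 (limma adjusted p = 0.0556 to 0.135), and Irf9 without any 1 of them or of control mice 3, 4, and 11 (adjusted p = 0.0575 to 0.137). The interferon genes were at or near the floor. Ifna4 was at 0.01 FPKM in all 9 mice, Ifnb1 in 8 of 9, and Ifng in 3 of 9, at means of 0.0503 ± 0.0432 (SD, n = 3) after anti-CD40 and 0.0806 ± 0.0717 (SD, n = 6) in controls, under the filter.

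Outside the PYHIN genes, the 5 profiles most like the mean of the 6 members over the 9 mice, by the root mean square difference of log2 values taken from their control mean, were those of Trim30a (0.125), Bub1 (0.126), Fbn1 (0.134), Rftn1 (0.135), and Herc6 (0.144). The members themselves lay 0.357 to 0.590 from their own mean. Trim30a and Herc6 are known interferon-induced genes, Bub1 is a mitotic checkpoint kinase, Fbn1 is an extracellular matrix protein, and Rftn1 is a lipid raft protein. Their log2 fold changes ran from 1.85 for Herc6 to 2.13 for Bub1, and none lies on chromosome 1. Bub1 had a control mean of 0.0259 FPKM and passed the filter only through the anti-CD40 mice, so its fold change and its likeness rest on the pseudocount.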

How the data were processed

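The study's authors made QuantSeq 3′ libraries from bulk liver RNA, aligned the reads with STAR to mm10, and ran Cufflinks and Cuffdiff, by the submitters' processing notes and the study's methods. The deposited values are FPKM per gene, with a floor of 0.01. Library type bears on them, since FPKM divides by transcript length while 3′ reads do not grow with length, so levels of different genes were not compared. The annotation and the treatment of reads with several matches are not given in the sources used here.

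The 15 genes with a failed estimate were left out, and 24326 remained, of which 6925 were at the floor in all mice. No scaling was added (median ratios between mice 1.004 to 1.010). log2(FPKM + 0.1), which understates the change of low genes, was fitted with limma 3.58.1 in R 4.3.3 (lmFit, eBayes with trend, treatment as the only factor, 2-sided, Benjamini-Hochberg over 13807 genes with a mean of at least 0.1 FPKM). Mice were grouped by the sample labels. Ratios were tested by exact permutation over 84 splits. The fit was checked on simulated data. Absolute depth is unknown, and relative depth ran from 0.870 to 1.13. No batch is named, and replicates are single mice from 1 experiment.

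The members and all gene lists were chosen with earlier results of these data known. All 7 members, the PYHIN, DNA sensing, and interferon lists, the neighbours within 500 kb, 3 leukocyte genes, and the 5 most alike profiles were named. One gene of the interferon list is not reported here and was taken out of its counts after the values were seen. Sequences are from RefSeq (GRCm38.p6), and 12 of 12 PYHIN rows matched a RefSeq gene, 1 of them by position. Transcripts are from GENCODE M21. Alternatives were pseudocounts of 1 and 0.01, other filters, scalings, moderations, and thresholds, array weights, and leaving out each mouse. Python 3.11.15 with numpy 2.4.6, pandas 2.3.3, and matplotlib 3.10.9 did the other steps.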

Additional observations from a re-analysis of the deposited data

Results flagged for a closer look

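Stat2, a transcription factor of the interferon response, had 1 control mouse apart from the rest. Control mouse 3 was at 1.12 FPKM and the next lowest control at 1.93, a gap of 0.720 of the range of the 6 control mice, over the limit of 0.625 for 6 samples. It was the only one of 40 genes examined, among which chance would set about 2 apart, and no control mouse stood apart in any of the 6 tested members.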

How the results depend on the processing

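All 6 tested members were called higher under every fit with another pseudocount, filter, scaling, moderation, or set of weights, with each mouse left out, and under both stricter thresholds, and 114 of 114 values of single members kept their direction and call. Leaving out Saa1, Saa2, and Saa3 with rescaling gave the highest values (1.65 for Ifi204 to 3.41 for Ifi205) but moved the median of all genes to 0.35. A pseudocount of 1 lowered Ifi205 to 2.30, Mnda to 2.11, and Pyhin1 to 1.74. Of the 9 pairs of members whose ratios differed, 0 passed with a pseudocount of 1 and 9 with 0.01. Without 1 control mouse 0 passed (0 to 0 over the 6 mice left out in turn), which says nothing of stability, since 56 splits allow no p under 0.0357, and without an anti-CD40 mouse (28 splits, 0.0714) the test was not run. Counts of pairs without overlap, an alternative chosen after seeing the data, ran from 7 to 10 over both pseudocounts and each mouse left out. Of ratios to leukocyte genes, 13 to 16 of 18 passed over the pseudocounts and each control mouse left out, and 13 to 16 did not overlap. Ddx41 turned to -0.045 under quantile normalization, near 0 either way. For the 34 other genes with alternatives, 29 values lost their call (Il1b, Irf9, Stat2, Pydc3, and Il18), 8 gained one (Tbk1, Ddx41, Ifnar1, Tyk2, and Irf1), and 604 kept theirs. No paired analysis was possible because the groups share no mouse number. Read totals were not given, and low genes such as BC094916 and Ifng rest on few reads.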
